A study of Gallus gallus with 6 samples.

Results

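The genes described here are 9 macrophage genes of the chicken: C1QA, C1QB, C1QC, VSIG4, CSF1R, MARCO, TIMD4, SPI1 and CYBB. They were chosen by name, with earlier results of these data known. Each has 1 row among the 20285 rows of the count table, and all 9 were among the 15655 genes with enough reads to be tested. Their levels were measured by RNA-seq in the uterovaginal junction, the short oviduct segment between uterus and vagina where hens store sperm. Breeder hens under heat stress, held at 36 °C for 6 h, were set against breeder hens at a thermoneutral 23 °C. Each group has 3 libraries, each library is pooled RNA of 4 hens (24 tissues in all), and the labels give neither age nor strain. A replicate is therefore a pool, and p-values measure the spread between pools rather than between single hens.

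C1q is the recognition molecule of the classical complement pathway. It is built from A, B and C chains, each with a collagen-like stalk and a globular head, and the heads bind antibody complexes and dying cells. In mammals most of it is made by tissue macrophages and related myeloid cells rather than by the liver, so its transcripts are used as macrophage markers. The other genes cover further roles of the same cells: VSIG4 is a complement receptor in mammals, MARCO and TIMD4 take up particles and dying cells, CSF1R receives the signal that keeps macrophages alive, SPI1 encodes the myeloid transcription factor PU.1, and CYBB encodes the catalytic subunit of the phagocyte NADPH oxidase.

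Library totals ran from 23944263 to 29502991 reads under heat stress and from 23438814 to 24959902 in thermoneutral hens, and the 9 genes together drew 2257 to 2548 reads per heat stress library and 3328 to 4165 per thermoneutral library. Values below are CPM, read counts divided by library size after scaling by the trimmed mean of M values (TMM), listed for libraries 1, 2 and 3 of a group in that order. Epithelial markers summed to 5012 to 5896 CPM under heat stress and 4876 to 5374 CPM in thermoneutral hens, and smooth muscle markers to 4507 to 6212 CPM under heat stress and 4751 to 7601 CPM in thermoneutral hens, so the tissue was an epithelial and muscular wall in which these macrophage genes were minor transcripts. The labelled segment itself was not checked against markers of its own.

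Of the 9 genes, 4 fell under heat stress (C1QA, C1QB, C1QC and VSIG4), 0 rose and 5 did not pass edgeR's quasi-likelihood test at an adjusted p of 0.05, with Benjamini-Hochberg adjustment over all tested genes. DESeq2 called 8 of the 9 lower, all but TIMD4, and over all 15655 tested genes it called 1937 lower and 2045 higher. By edgeR 19.8% of all tested genes passed, 9.52% lower (1490 genes) and 10.2% higher (1602 genes). Upper-quartile scaling turned that edgeR split to 1789 lower and 1265 higher. All 9 log2 changes were below 0, with a median of -0.72 against -0.0083 over all tested genes. In 8 of the 9, every heat stress library was below every thermoneutral library, which held for 21.0% of tested genes. Because the genes were chosen with earlier results known, these shares describe the set and are not a test of it. These are whole-tissue measurements, in which fewer macrophages and less RNA of these genes per macrophage cannot be told apart.

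**Figure D1:**
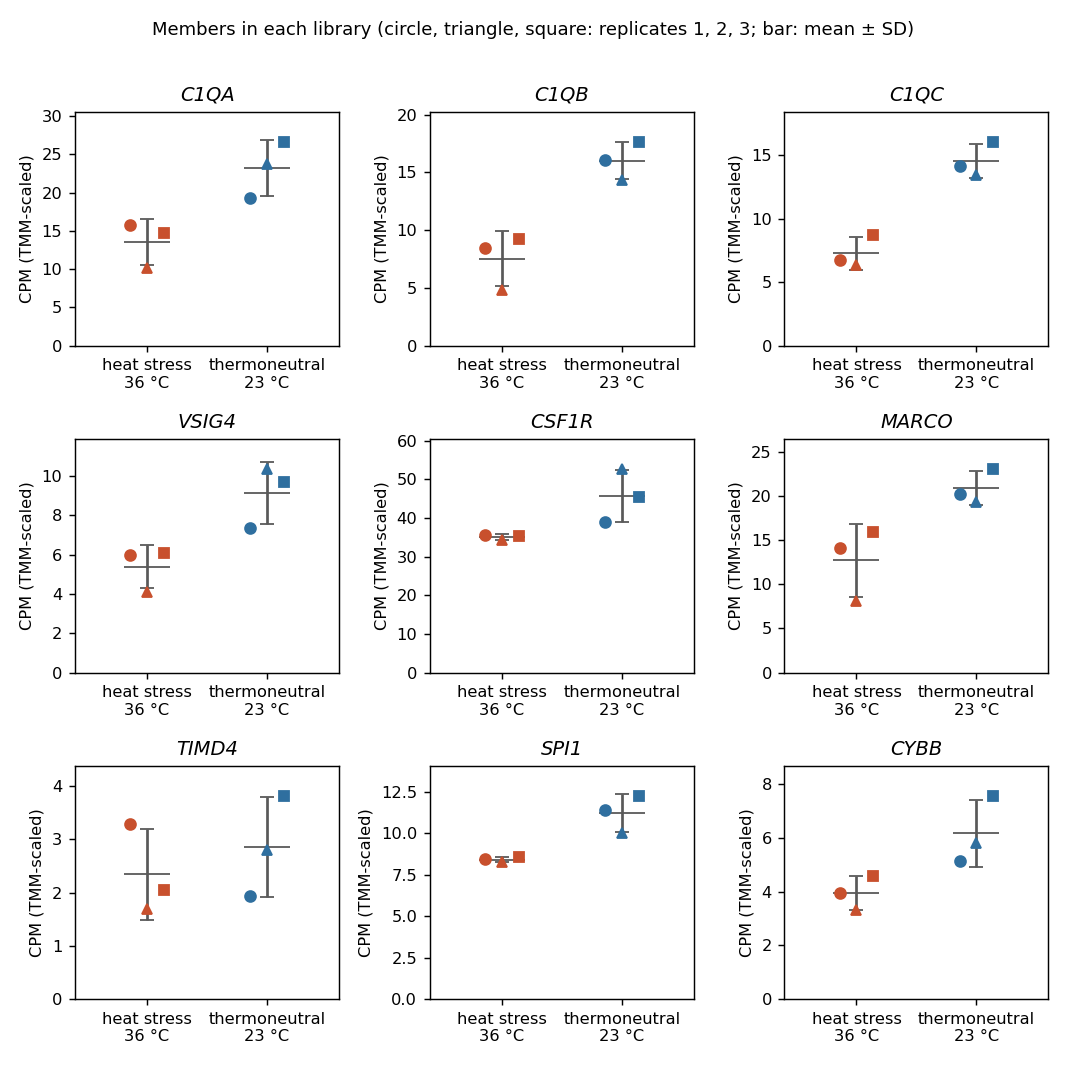
CPM of the 9 genes in each library, 1 panel per gene with its own vertical axis from 0, heat stress on the left and thermoneutral on the right. Circles, triangles and squares are libraries 1, 2 and 3 of a group, and bars are the group mean ± SD. The groups are apart in 8 panels, and TIMD4, at 1.69 to 3.30 CPM under heat stress and 1.94 to 3.81 CPM in thermoneutral hens, is the panel where they overlap.

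The 3 C1q chains had the largest estimated falls of the set, between 1.72-fold and 2.14-fold. They lie side by side on chromosome 21 of the build GRCg6a, all on the minus strand: C1QB (ENSGALG00000004771) at 6073556 to 6075682, C1QC (ENSGALG00000029669) at 6076987 to 6078857 and C1QA (ENSGALG00000021569) at 6079357 to 6081398. The gaps between them are 1304 bp and 499 bp, and no other annotated row overlaps them, and the chains do not overlap each other. The table's description of the C1QC row names a collagen type XI chain, while the NCBI gene number in that description belongs to C1QC in the RefSeq table of the assembly GRCg7b.

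C1QA, the A chain, had 15.8, 10.1 and 14.7 CPM in heat stress libraries, against 19.3, 23.8 and 26.6 CPM in thermoneutral libraries. The groups did not overlap, and the highest heat stress library was library 1. C1QA fell by 0.78 on the log2 scale (SE 0.19, 95% interval -1.23 to -0.33), or 1.72-fold, with an adjusted p of 0.0304. Leaving out heat stress library 2, heat stress library 3, thermoneutral library 2 or thermoneutral library 3 ended this call, with adjusted p between 0.057 and 0.0936.

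C1QB, the B chain, had 8.48, 4.81 and 9.26 CPM in heat stress libraries, against 16.1, 14.4 and 17.6 CPM in thermoneutral libraries. Heat stress library 2 was the lowest by a wide margin, but libraries 1 and 3 of that group were also well under every thermoneutral library. C1QB fell by 1.09 on the log2 scale (SE 0.24, 95% interval -1.66 to -0.53), or 2.14-fold, with an adjusted p of 0.022. It still passed without heat stress library 1 or 2, and leaving out any other library ended the call, with adjusted p between 0.0548 and 0.0687.

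C1QC, the C chain, had 6.75, 6.31 and 8.74 CPM in heat stress libraries, against 14.1, 13.5 and 16.0 CPM in thermoneutral libraries. A wide gap separated the groups, the lowest thermoneutral library being 1.54 times the highest heat stress library. C1QC fell by 1.001 on the log2 scale (SE 0.17, 95% interval -1.38 to -0.62), or 2.002-fold, with an adjusted p of 0.0116. Of the 9 genes, C1QC was the 1 that passed whichever single library was dropped, with adjusted p from 0.0146 to 0.0488.

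The make-up of C1q transcripts was compared per length, in FPKM, which scales fragments by gene length and library size. The 3 chains summed to 25.9, 17.0 and 26.8 in heat stress libraries, against 44.4, 45.3 and 52.9 in thermoneutral libraries. FPKM carry no TMM scaling. The heat stress mean of the sum was 0.488 of the thermoneutral mean in FPKM, and 0.522 in TMM-scaled CPM per kilobase. C1QA made up 44.0% ± 2.87 of that sum under heat stress and 39.4% ± 3.53 in thermoneutral hens (SD, n = 3 each). For C1QB the share was 28.5% ± 3.25 under heat stress and 32.3% ± 2.36 in thermoneutral hens, and for C1QC 27.5% ± 4.21 under heat stress and 28.3% ± 1.18 in thermoneutral hens. All 3 shares overlapped between the groups, and a shift in them was not tested.

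The genes on either side of the cluster, both ephrin receptors on the same strand, were not called lower. EPHB2, 19904 bp from C1QB, had a log2 change of 0.34 with an adjusted p of 0.0498 and was called higher, a call lost whichever single library was dropped (adjusted p 0.0555 to 0.152). EPHA8, 37070 bp from C1QA, had 11 to 41 reads per heat stress library and 27 to 42 per thermoneutral library, with a log2 change of -0.51 and an adjusted p of 0.416.

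VSIG4 (ENSGALG00000044799, chromosome 4, 268905 to 277022, minus strand) encodes an immunoglobulin-domain receptor that in mammals binds fragments of complement C3 on resident macrophages. It had 5.99, 4.13 and 6.09 CPM in heat stress libraries, against 7.36, 10.4 and 9.72 CPM in thermoneutral libraries. Thermoneutral library 1 came closest to the heat stress group, without overlap. VSIG4 fell by 0.76 on the log2 scale (SE 0.22, 95% interval -1.26 to -0.26), or 1.70-fold, with an adjusted p of 0.0452. The call held without heat stress library 1, at 0.05, and was lost when any other library was dropped, with adjusted p between 0.0504 and 0.143.

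The scavenger receptors MARCO and TIMD4 did not pass. MARCO (ENSGALG00000012119, chromosome 7, 28482051 to 28491954, minus strand), which binds bacteria and particles, had 14.1, 8.07 and 16.0 CPM in heat stress libraries, against 20.2, 19.3 and 23.0 CPM in thermoneutral libraries. The groups did not overlap, and heat stress library 2 was far below the other libraries of its group. For MARCO the log2 change was -0.72 (SE 0.24, 95% interval -1.28 to -0.16) with an adjusted p of 0.0726.

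TIMD4 (ENSGALG00000003876, chromosome 13, 12172827 to 12188986, plus strand), a receptor for the phosphatidylserine exposed by dying cells, was the rarest of the set in CPM. It had 3.30, 1.69 and 2.04 CPM in heat stress libraries, against 1.94, 2.81 and 3.81 CPM in thermoneutral libraries, from 47 to 82 reads per heat stress library and 48 to 98 per thermoneutral library. The groups overlapped, and heat stress library 1 was the second highest of all 6. The log2 change was -0.29 (SE 0.35, 95% interval -1.10 to 0.52, adjusted p 0.588), an interval that holds falls as large as those of the C1q chains as well as no change. Its first bases overlap the end of HAVCR1 (12143095 to 12173099) on the same strand, so how reads there were assigned is uncertain.

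CSF1R (ENSGALG00000005725, chromosome 13, 13980059 to 13997910, plus strand), the receptor for the macrophage growth factors CSF1 and IL34, had the most reads of the set. It had 35.7, 34.3 and 35.4 CPM in heat stress libraries, against 39.1, 52.7 and 45.4 CPM in thermoneutral libraries. The heat stress libraries lay within a narrow band, under a thermoneutral group that was itself widely spread. Its log2 change was -0.38 (SE 0.11, 95% interval -0.64 to -0.12), 1.3-fold lower, with an adjusted p of 0.0526 that did not pass. Dropping thermoneutral library 1 brought it to 0.0361, and it did not pass when any other single library was dropped.

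SPI1 (ENSGALG00000008127, chromosome 5, 23185094 to 23206765, plus strand), the gene of PU.1, which in mammals switches on CSF1R and many other myeloid genes, had 8.44, 8.25 and 8.56 CPM in heat stress libraries, against 11.4, 10.03 and 12.3 CPM in thermoneutral libraries. As for CSF1R, the heat stress values were nearly the same in the 3 pools and below the whole thermoneutral range. That heat stress spread, a coefficient of variation of 1.87% for SPI1 and 2.045% for CSF1R, was smaller than the counting error of a single library, 6.59% to 7.12% for SPI1 and 3.23% to 3.50% for CSF1R. For SPI1 the log2 change was -0.42 (SE 0.14, 95% interval -0.73 to -0.10), 1.33-fold lower, with an adjusted p of 0.067.

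CYBB (ENSGALG00000016261, chromosome 1, 114457437 to 114478974, minus strand), the oxidase subunit that makes superoxide in phagocytes, had 3.94, 3.30 and 4.57 CPM in heat stress libraries, against 5.14, 5.78 and 7.54 CPM in thermoneutral libraries. The groups did not overlap, and thermoneutral library 3 stood above the rest. For CYBB the log2 change was -0.65 (SE 0.22, 95% interval -1.15 to -0.14), 1.57-fold lower, with an adjusted p of 0.0727. SPI1, CYBB and MARCO did not pass in any fit that dropped a single library.

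**Figure D2:**
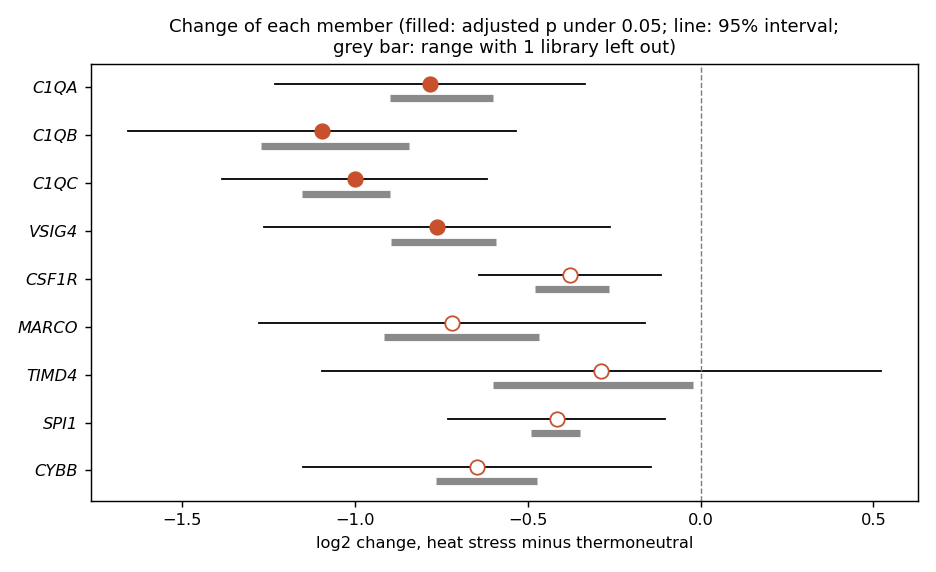
Log2 change of each of the 9 genes, heat stress minus thermoneutral, with 95% intervals from edgeR's quasi-likelihood fit. Filled points have an adjusted p under 0.05, and grey bars span the log2 changes with 1 library left out. The 3 C1q chains and VSIG4 are filled, and the interval of TIMD4, -1.10 to 0.52, is the only one of the 9 that spans 0.

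The number called depended on single libraries. Of the 9 genes, 4 were lower without heat stress library 1, 2 without heat stress library 2, 1 without heat stress library 3, 3 without thermoneutral library 1, 1 without thermoneutral library 2 and 1 without thermoneutral library 3. The count over all genes moved too, and ran from 313 without heat stress library 3 to 3690 without heat stress library 1, against 3092 with all 6. Lower calls over all genes were 1679, 702 and 162 without heat stress libraries 1, 2 and 3. Without thermoneutral libraries 1, 2 and 3 they were 846, 246 and 668, against 1490 with all 6. Every member kept a log2 change below 0 in each of these fits.

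The heat stress libraries were not alike in the summed level of these genes. Heat stress library 2 was the lowest of its group for all 9, where 34.4% of tested genes had their lowest heat stress value in that library. For SPI1 and CSF1R the spread of the heat stress libraries was smaller than counting error. For C1QC, libraries 2 and 1 were close, at 6.31 and 6.75 CPM. Summed over the 9 genes, heat stress library 2 had 81.0 CPM, against 102 and 105 CPM in heat stress libraries 1 and 3. Thermoneutral libraries had 135, 153 and 162 CPM. Heat stress library 2 stood below all of these. It was also the deepest library, at 29502991 reads, and the part of depth in this result was not tested. Thermoneutral library 3 was the highest of its group for 7 genes and thermoneutral library 2 for 2, against 34.5% and 30.9% of tested genes. Without heat stress library 2 the C1QA change was -0.60, with an adjusted p of 0.057, and C1QB, at -0.84, and C1QC were still called lower.

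Set against CSF1R in the same library, a ratio that no scaling of library size can alter, the C1q chains were also lower. The ratio of C1QA to CSF1R in FPKM was 1.48, 0.984 and 1.39 in heat stress libraries, against 1.66, 1.51 and 1.97 in thermoneutral libraries. For C1QB it was 0.944, 0.556 and 1.04 in heat stress libraries, against 1.63, 1.08 and 1.54 in thermoneutral libraries. For C1QC it was 0.727, 0.707 and 0.948 in heat stress libraries, against 1.39, 0.983 and 1.36 in thermoneutral libraries. None of the 3 overlapped between groups, although for each of them thermoneutral library 2, the library with most CSF1R, came close to the highest heat stress value.

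The other members divided. The VSIG4 ratio to CSF1R was 0.370 ± 0.069 under heat stress and 0.483 ± 0.032 in thermoneutral hens, without overlap. The SPI1 ratio was 0.463 ± 0.0052 under heat stress and 0.485 ± 0.10 in thermoneutral hens, with overlap. MARCO, at 0.589 ± 0.18 under heat stress and 0.760 ± 0.14 in thermoneutral hens, and CYBB, at 0.152 ± 0.022 under heat stress and 0.184 ± 0.039 in thermoneutral hens, overlapped as well. These ratios were not tested, and with 3 libraries a group the smallest exact two-sided permutation p is 0.1. How many of all tested genes have a ratio to CSF1R without overlap was not counted. In CPM, 21.0% of tested genes had every heat stress library below every thermoneutral library.

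**Figure D3:**
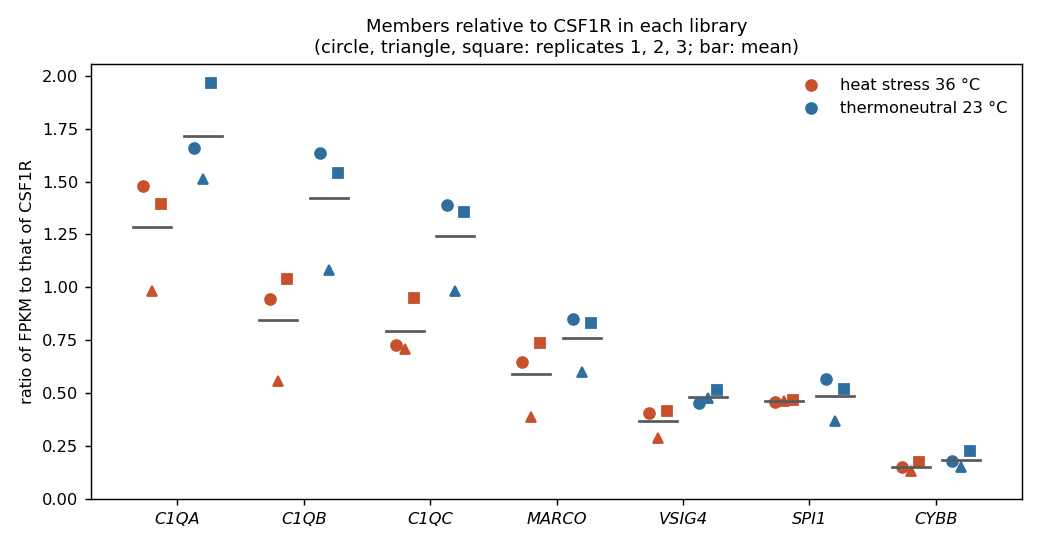
Ratio of the FPKM of 7 members to that of CSF1R, with heat stress libraries left of thermoneutral libraries for each gene. Circles, triangles and squares are libraries 1, 2 and 3 of a group, and bars are group means. For C1QA, C1QB, C1QC and VSIG4 every heat stress point lies below every thermoneutral point, while MARCO, SPI1 and CYBB overlap.

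Compared per length, CSF1R stood between C1QA and C1QB under heat stress, whereas all 3 C1q chains had higher means than CSF1R in thermoneutral hens. Under heat stress C1QA had 10.2 ± 2.47 FPKM, CSF1R 7.89 ± 0.333, C1QB 6.72 ± 2.20, C1QC 6.27 ± 1.12, MARCO 4.68 ± 1.56, SPI1 3.65 ± 0.130, VSIG4 2.93 ± 0.645, TIMD4 1.27 ± 0.487 and CYBB 1.197 ± 0.202. In thermoneutral hens C1QA had 18.8 ± 2.84 FPKM, C1QB 15.3 ± 1.53, C1QC 13.5 ± 1.19, CSF1R 11.01 ± 1.59, MARCO 8.23 ± 0.733, VSIG4 5.32 ± 0.890, SPI1 5.23 ± 0.518, CYBB 2.01 ± 0.395 and TIMD4 1.65 ± 0.530 (SD, n = 3 each). Neighbours in the heat stress order overlapped except SPI1 with VSIG4 and VSIG4 with TIMD4. In the thermoneutral order CSF1R did not overlap MARCO, MARCO did not overlap VSIG4 and SPI1 did not overlap CYBB, while the other neighbours overlapped. The place of VSIG4 and TIMD4 is uncertain, because their FPKM imply lengths of 1780 and 1793 bases where the table lists 2297 and 2957, and on the listed length VSIG4 falls below SPI1 in thermoneutral hens too.

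Of 9 tested genes of the C1 complex and classical pathway, 4 were lower (the 3 C1q chains and C1R) and 1 was higher (CALR), with a median log2 change of -0.40. Those shares are 44.4% lower and 11.1% higher, against 9.52% and 10.2% of all tested genes, and the C1q chains are also in the 9-gene set. C1R, the protease that C1q activates first, averaged 26.6 ± 5.33 CPM under heat stress and 40.2 ± 4.17 CPM in thermoneutral hens, a log2 change of -0.59 (adjusted p 0.0322). Its substrate C1S had 36.4 ± 10.01 CPM under heat stress and 42.9 ± 3.45 CPM in thermoneutral hens, a log2 change of -0.24 (adjusted p 0.382). C4, the next component cleaved, had 36.0 ± 7.21 CPM under heat stress and 47.6 ± 6.70 CPM in thermoneutral hens, a log2 change of -0.40 (adjusted p 0.121), and C4A had a log2 change of -0.25 (adjusted p 0.604). C3, the component on which all complement routes meet, had 72.8 ± 4.45 CPM under heat stress and 66.2 ± 11.9 CPM in thermoneutral hens, a log2 change of 0.14 (adjusted p 0.494). CALR, an endoplasmic reticulum chaperone that also acts as a cell-surface receptor for the C1q stalk, averaged 1011 ± 97.4 CPM under heat stress and 679 ± 26.4 CPM in thermoneutral hens, a log2 change of 0.58 (adjusted p 0.0115). With 1 library left out the lower count was 3 without heat stress library 1 and 1 without thermoneutral libraries 2 or 3. It was 2 without heat stress libraries 2 or 3 or thermoneutral library 1. CALR lost its call without heat stress library 3 or thermoneutral library 2. Over all tested genes, lower calls also fell, from 1490 to 162 without heat stress library 3 and to 246 without thermoneutral library 2.

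Of 19 complement receptors and regulators listed, 8 had a row under their symbol and were tested. Of the 8, 1 was lower (VSIG4, or 12.5%, against 9.52% of all tested genes) and 0 were higher. The integrin chain ITGB2, a part of complement receptors on leukocytes, had 24.2 ± 4.96 CPM under heat stress and 32.2 ± 4.64 CPM in thermoneutral hens (adjusted p 0.115). C3AR1, the receptor of the C3a fragment, had 2.49 ± 0.605 CPM under heat stress and 3.77 ± 0.552 CPM in thermoneutral hens (adjusted p 0.13).

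The phagocyte oxidase, of which CYBB is the catalytic core, had 2 of 8 tested genes lower and 0 higher. The median log2 change of the 8 was -0.38, and 6 of them, CYBB included, did not pass. Of all tested genes, 9.52% were lower and 10.2% higher. CYBA, the membrane partner that stabilises CYBB, averaged 167 ± 18.7 CPM under heat stress and 232 ± 7.76 CPM in thermoneutral hens, a log2 change of -0.47 (adjusted p 0.0158). HVCN1, a proton channel that balances the charge the oxidase moves, averaged 28.7 ± 1.05 CPM under heat stress and 45.1 ± 5.12 CPM in thermoneutral hens, a log2 change of -0.65 (adjusted p 0.0106). CYBA, HVCN1 and CALR are expressed outside macrophages as well. The lower count was 0 without heat stress library 3 and 1 without thermoneutral library 2. Those fits called 162 and 246 of all tested genes lower, against 1490 with all libraries.

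Among ligands of CSF1R and myeloid transcription factors, 2 of 11 tested genes were lower and 1 was higher. These shares are 18.2% lower and 9.09% higher, against 9.52% and 10.2% of all tested genes. IRF8, a transcription factor of the monocyte and dendritic lineage that also responds to interferon, averaged 219 ± 5.14 CPM under heat stress and 355 ± 34.1 CPM in thermoneutral hens, a log2 change of -0.69 (adjusted p 0.00873), and it passed whichever single library was dropped. IL34, a ligand of CSF1R, averaged 30.1 ± 3.37 CPM under heat stress and 42.5 ± 3.91 CPM in thermoneutral hens, a log2 change of -0.50 (adjusted p 0.0224). The other ligand, CSF1, had 14.7 ± 0.40 CPM under heat stress and 17.4 ± 2.35 CPM in thermoneutral hens (adjusted p 0.209). NR1H3, the oxysterol receptor LXR alpha, averaged 270 ± 34.2 CPM under heat stress and 197 ± 5.25 CPM in thermoneutral hens, a log2 change of 0.45 (adjusted p 0.022). Which cells the RNA of IRF8, IL34 and NR1H3 came from cannot be told in whole tissue, so their changes are not specific to macrophages. The lower count was 1 without heat stress libraries 2 or 3 or thermoneutral library 2. These fits called 702, 162 and 246 of all tested genes lower, against 1490 with all libraries. The higher count was 3 without heat stress library 1 and 0 with any other library left out.

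Other receptors and markers of macrophages were called lower at shares near the 9.52% of all tested genes. Of 14 scavenger and apoptotic cell receptors and their ligands, 2 were lower (14.3%) and 0 higher, with a median log2 change of -0.16. STAB1, a scavenger receptor of macrophages and sinusoidal endothelium, averaged 39.1 ± 5.06 CPM under heat stress and 57.3 ± 6.99 CPM in thermoneutral hens, a log2 change of -0.55 (adjusted p 0.0232). PROS1, a bridging ligand between dying cells and TAM receptors, averaged 118 ± 2.45 CPM under heat stress and 142 ± 7.87 CPM in thermoneutral hens, a log2 change of -0.28 (adjusted p 0.03). The count of 2 was 1 without heat stress libraries 1 or 2 or thermoneutral library 3 and 0 without heat stress library 3 or thermoneutral library 2. Where it was 0, lower calls over all tested genes were 162 and 246, against 1490 with all libraries.

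Of 27 other macrophage markers listed, 16 had a row under their symbol, all tested, and CD163, CD68 and AIF1 were among those without. Of the 16, 2 were lower (12.5%) and 0 higher, with a median of -0.24. SLC11A1, a metal transporter of phagosomes, averaged 19.6 ± 1.40 CPM under heat stress and 29.1 ± 3.28 CPM in thermoneutral hens, a log2 change of -0.57 (adjusted p 0.0164). CD14, a co-receptor for bacterial lipopolysaccharide, averaged 1.80 ± 0.364 CPM under heat stress and 3.38 ± 0.591 CPM in thermoneutral hens, a log2 change of -0.90 (adjusted p 0.0434). LY86, an accessory protein of innate receptors, had 14.4 ± 2.24 CPM under heat stress and 20.9 ± 4.24 CPM in thermoneutral hens (adjusted p 0.0716). Log2 changes above 0 were those of LGMN (0.22, adjusted p 0.166), GPR34 (0.26, adjusted p 0.486) and CD86 (0.34, adjusted p 0.565). For LGMN every heat stress library was above every thermoneutral library. The count was 3 without heat stress library 1, 1 without heat stress library 2 and 0 without heat stress library 3 or thermoneutral libraries 2 or 3. Where it was 0, lower calls over all tested genes were 162, 246 and 668, against 1490 with all libraries.

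**Figure D4:**
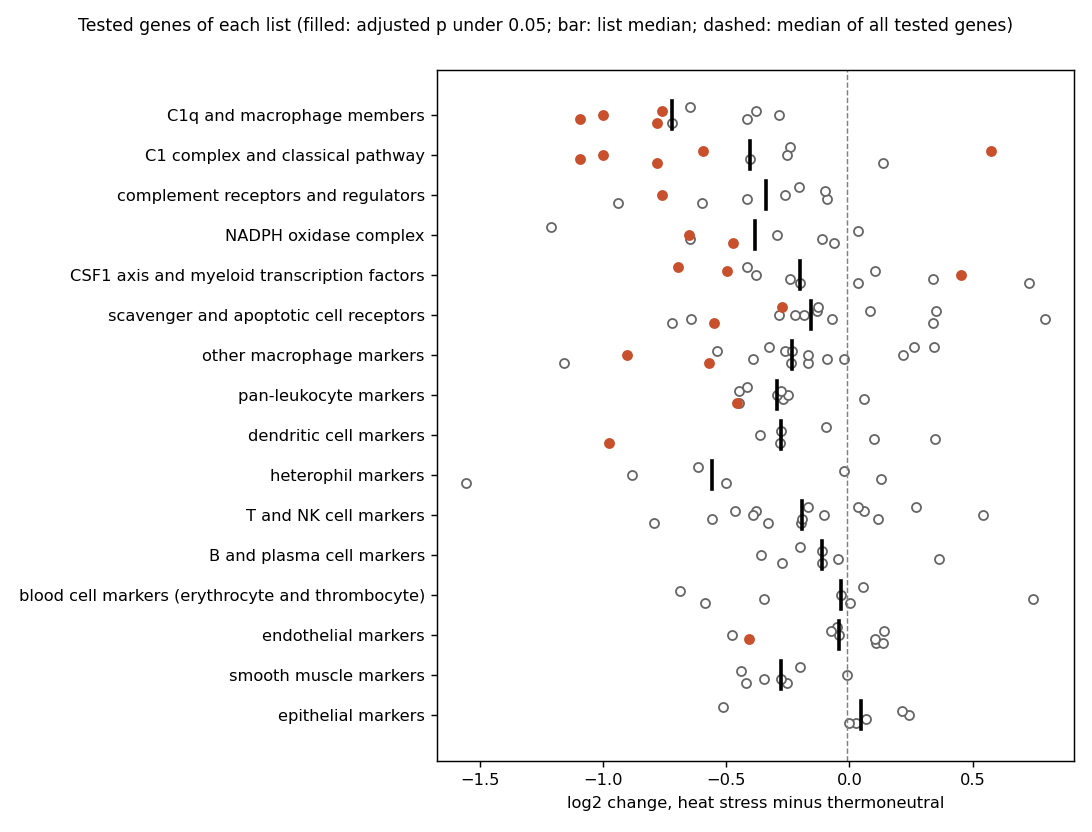
Log2 change, heat stress minus thermoneutral, of each tested gene in the 9-gene set and in 15 further lists, some of which share genes. Filled points have an adjusted p under 0.05, bars are list medians and the dashed line is the median of all tested genes, -0.0083. The median of the 9 genes is -0.72, and those of the other lists run between -0.56 for heterophil markers and 0.046 for epithelial markers.

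Of 9 tested pan-leukocyte genes 1 was lower (11.1%, against 9.52% of all tested genes) and 0 higher, with a median log2 change of -0.30, and their summed level was 202 to 250 CPM under heat stress and 260 to 277 CPM in thermoneutral hens, without overlap. ARHGDIB, a signalling regulator of blood cells, averaged 34.96 ± 2.90 CPM under heat stress and 47.9 ± 2.14 CPM in thermoneutral hens (adjusted p 0.0157). WAS, at 35.4 ± 1.39 CPM under heat stress and 42.9 ± 3.08 CPM in thermoneutral hens, and LCP1, at 33.9 ± 7.12 CPM under heat stress and 46.2 ± 2.90 CPM in thermoneutral hens, both regulators of actin, did not pass (adjusted p 0.0557 and 0.0648). PTPRC, which encodes the common leukocyte antigen CD45, had 54.2 ± 7.41 CPM under heat stress and 52.0 ± 3.77 CPM in thermoneutral hens (adjusted p 0.736). The call count was 2 without heat stress library 3 and 0 without thermoneutral library 2, and it was 3 by DESeq2 and 2 by limma-voom. Lower calls over all tested genes in these fits were 162, 246, 1937 and 1506, against 1490 in the main fit. The part of leukocyte number in the falls of the 9 genes was not tested.

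Dendritic cells are close relatives of macrophages. Of 7 tested dendritic markers, 1 was lower (14.3%, against 9.52% of all tested genes) and 0 higher, with a median log2 change of -0.28. Their summed level was 112 to 125 CPM under heat stress and 108 to 115 CPM in thermoneutral hens, most of it from ZBTB46 and CADM1. The call was BATF3, a transcription factor of cross-presenting dendritic cells, at 4.46 ± 0.657 CPM under heat stress and 8.78 ± 1.66 CPM in thermoneutral hens (adjusted p 0.0185). It was lost without heat stress libraries 2 or 3 or thermoneutral library 2. ZBTB46, at 48.1 ± 6.78 CPM under heat stress and 37.8 ± 0.351 CPM in thermoneutral hens (adjusted p 0.0617), and CD83, at 5.28 ± 1.41 CPM under heat stress and 6.39 ± 1.34 CPM in thermoneutral hens (adjusted p 0.464), did not pass.

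Heterophils, the avian counterpart of neutrophils, left little RNA: 6 of their 10 rows averaged under 1 CPM, and the 10 summed to 7.93 to 18.9 CPM under heat stress and 13.6 to 26.5 CPM in thermoneutral hens. By edgeR 0 of 6 tested passed, against 19.8% of all tested genes, and 1 had an unadjusted p under 0.05. The share of all tested genes under that unadjusted level was not counted, here or for the lists below. DESeq2 also called 0, against 3982 of all 15655 tested genes. In a list this short, 0 calls do not show that a cell type was unchanged. S100A9 had 0.195 ± 0.16 CPM under heat stress and 0.588 ± 0.11 CPM in thermoneutral hens, CSF3R 4.09 ± 0.845 CPM under heat stress and 5.79 ± 1.23 CPM in thermoneutral hens, and LECT2 0.706 ± 0.52 CPM under heat stress and 1.33 ± 0.86 CPM in thermoneutral hens.

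Lymphocyte markers did not pass either, against 19.8% of all tested genes, and 0 calls in short lists do not show these cells unchanged. For T and NK cells, edgeR called 0 of 15, with 2 at an unadjusted p under 0.05, a level whose share over all genes was not counted. DESeq2 called 1 lower, against 1937 of all 15655 tested genes. The summed level was 110 to 157 CPM under heat stress and 136 to 158 CPM in thermoneutral hens. CD4 had the smallest p of these, at 1.85 ± 0.439 CPM under heat stress and 3.20 ± 0.158 CPM in thermoneutral hens (adjusted p 0.0582), before CD3D (adjusted p 0.117) and CD5 (adjusted p 0.219). For B and plasma cells, 0 of 7 passed by edgeR, 0 by DESeq2 and 0 at an unadjusted p under 0.05, with 1206 to 1427 CPM in sum under heat stress and 1107 to 1989 CPM in thermoneutral hens. The smallest p there belonged to BLNK, with a log2 change of 0.37 (adjusted p 0.144), BLK, with -0.27 (adjusted p 0.404), and CD79B, with -0.36 (adjusted p 0.467).

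Of 7 erythrocyte and thrombocyte genes edgeR called 0, against 19.8% of all tested genes. At an unadjusted p under 0.05 there was 1, and the share of all genes at that level was not counted. DESeq2 called 1, against 3982 of all 15655 tested genes. In a list this short, 0 calls do not show these cells unchanged. Their summed level was 152 to 178 CPM under heat stress and 153 to 202 CPM in thermoneutral hens. The adult beta globin HBBA had 23.0 ± 6.36 CPM under heat stress and 37.1 ± 8.35 CPM in thermoneutral hens (adjusted p 0.0891), before the integrins ITGB3 (adjusted p 0.15) and ITGA2B (adjusted p 0.287). Of 9 endothelial genes 1 was lower (11.1%, against 9.52% of all tested genes). It was EGFL7, at 22.01 ± 1.87 CPM under heat stress and 29.2 ± 2.06 CPM in thermoneutral hens (adjusted p 0.0298). That call was lost without heat stress libraries 1 or 3 or thermoneutral libraries 2 or 3. ERG (adjusted p 0.0528) and PECAM1 (adjusted p 0.295) did not pass.

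Smooth muscle had 0 of 7 called by edgeR, against 19.8% of all tested genes, with 0 by DESeq2 and 0 at an unadjusted p under 0.05. The median log2 change was -0.28. MYH11, at -0.44 (adjusted p 0.199), SMTN, at -0.42 (adjusted p 0.244), and TAGLN, at -0.35 (adjusted p 0.257), came first by p. Without thermoneutral library 1, 2 of the 7 were called lower, against 846 of all tested genes in that fit. In lists as short as those of muscle and epithelium, 0 calls do not show a tissue unchanged. Epithelium had 0 of 6 called by edgeR, against the same 19.8%, with a median log2 change of 0.046. At an unadjusted p under 0.05 there were 2, and the share of all genes at that level was not counted. DESeq2 called 2, against 3982 of all 15655 tested genes. Its first genes by p were KRT18, with a log2 change of -0.51 (adjusted p 0.0623), EPCAM, with 0.24 (adjusted p 0.104), and ESRP1, with 0.21 (adjusted p 0.141).

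The genes whose log2 CPM over the 6 libraries was most like the mean of the C1q chains were UBE2C (Pearson r 0.995), CAMKMT (0.994), LDB2 (0.993), MLF2 (0.992) and HS1BP3 (0.992), among 10591 protein-coding genes with a symbol and a mean of at least 1 CPM. They do not include other members of the set, of which MARCO was closest at rank 88 (r 0.961), followed by CYBB at rank 131, VSIG4 at rank 154, SPI1 at rank 404, CSF1R at rank 1512 and TIMD4 at rank 3039. For CSF1R the closest of 10593 genes were OASL (0.993), PXK (0.991), STAT2 (0.991), COL6A3 (0.989) and RILP (0.989). OASL and STAT2 belong to the interferon response. These coefficients rest on 6 libraries that fall into 2 groups and share their pools and scaling, so they describe likeness in this table and carry no test.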

How the data were processed

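RNA was pooled from 4 hens per library, selected for messenger RNA with poly-T beads and made into libraries with dUTP in the second strand, per the labels' protocols. The authors deposited raw read counts per gene and FPKM for the same 20285 rows, and the submitters' processing notes name fastp, HISAT2 2.0.5, featureCounts 1.5.0-p3 and the build GRCg6a. Annotation release, strand setting and filters are not stated there, which leaves rows that overlap or lie antisense to each other uncertain.

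Heat stress was set against thermoneutral on these counts with the robust quasi-likelihood test of edgeR 4.0.16 (R 4.3.3), after filterByExpr by group and TMM scaling. P-values were adjusted by Benjamini-Hochberg over 15655 genes, with a threshold of 0.05. The SE is the absolute log2 change over the square root of F. Intervals are 95% intervals on the fit's total degrees of freedom. Log2 CPM for likeness used a prior count of 2. The deposited FPKM, which carry no TMM scaling, served to compare levels between genes, and group values given in FPKM were not tested. Library totals implied by FPKM exceeded the count sums by 0.0057% to 0.085%. Symbols came from the file for 12494 rows and from the RefSeq table of GRCg7b for 690 more. No library was a copy of another: chi-square per degree of freedom within groups was 22.1 to 107. Members drew 47 to 1275 reads per library. No molecular identifiers are named, so counting error is a lower limit to the error of a library.

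The 9 genes and the 15 lists were chosen with earlier results of these data known. Listed genes with no row under their symbol were left out, so many lists are partial. Named were the 9 genes, the 3 genes with the smallest p of each list, called genes of the classical pathway, oxidase, CSF1 and macrophage lists, the 5 genes most like C1q and like CSF1R, and the neighbours of the C1q cluster. C1S, C3, C4, C4A, CADM1, CD86, CSF1, GPR34, LGMN and PTPRC were named after their values were seen. Alternatives were 2 other scalings, no filter and a stricter filter, DESeq2 1.42.0, limma-voom (limma 3.58.1), a replicate block and each library left out. The scripts were tested on simulated data.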

Additional observations from a re-analysis of the deposited data

How the results depend on the processing

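Log2 changes of the 9 genes stayed below 0 in all 116 values over these alternatives, of which 93 kept their side of the threshold, 14 lost a call and 9 gained one. DESeq2 called 8 of the 9 lower, all but TIMD4, against 4 by edgeR. Over all genes DESeq2 called 3982, of which 1937 were lower, against 3092 and 1490 by edgeR. A stricter filter called 6, with CSF1R and SPI1 added, and left TIMD4 untested. It called 1501 lower and 1418 higher of 11854 tested genes. Upper-quartile scaling called 5, with CSF1R added, and its split over all genes was 1265 higher and 1789 lower, against 1602 higher and 1490 lower. Relative log expression scaling, no filter and limma-voom each called the same 4. With 1 library left out, 1 to 4 of the 9 genes and 313 to 3690 of all genes were called. The replicate block called 2722 genes and 4 of the 9, with MARCO in place of VSIG4, whose adjusted p was 0.0705. Deviations of same-numbered libraries correlated at -0.048, 0.25 and 0.072, so the numbers were not taken to pair the libraries. Single-gene log2 changes were followed through these alternatives for selected genes only. Among those genes, the changes that reversed with 1 library left out were those of CD79B (-0.55 to 0.068), C3 (-0.0055 to 0.23) and PTPRC (-0.051 to 0.16), none called. Over lists and directions, 69 counts moved by over 1.5 times, or to or from 0, and 321 did not. Many of the 321 were counts of 0 that stayed at 0, so they do not show that counts above 0 were stable. The endothelial count of 1 lower gene, for example, ran from 0 to 2. The causes were not tested. Counting error was largest for TIMD4, at 10.1% to 14.6% per library.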
